A study of Bos taurus with 4 samples.

Results

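Collagens are the main structural proteins of the connective tissue that surrounds muscle fibres, and the 10 chains considered here were COL1A1, COL1A2, COL3A1, COL4A1, COL5A1, COL5A2, COL6A1, COL6A3, COL12A1 and COL15A1. A chain counted as measured where a bovine probe on the arrays carried a RefSeq transcript accession that belongs to its gene. This held for 5 of 10 chains, COL3A1, COL1A1, COL1A2, COL6A1 and COL15A1, each with 1 probe printed as 2 spots, out of 7788 genes matched on the array. COL4A1, COL5A1, COL5A2, COL6A3 and COL12A1 had no matched probe and were not analysed here. The study compared muscle of a beef breed with muscle of a dairy breed. Total RNA of the semitendinosus, a hindlimb muscle, was taken from 4 Limousin (LIM) and 4 Holstein-Friesian (HF) bulls, all 15 months of age. They were hybridised in pairs to 4 two-colour arrays, always with LIM in Cy5 (red) and HF in Cy3 (green). With no dye swap, an effect of the breed cannot be told apart from one of the dye, and every difference below is one between the LIM channel and the HF channel.

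Type I collagen, built from the products of COL1A1 and COL1A2, and type III collagen, built from COL3A1 alone, assemble into the striated fibrils of the endomysium and perimysium, the sheaths around muscle fibres and fibre bundles. The fibrils give the tissue its tensile strength, and type III is typical of thin, extensible ones. Type VI collagen, of which COL6A1 is a chain, forms beaded microfilaments that connect fibrils with the basement membrane, and in humans its variants cause muscle disease. Type XV collagen, the product of COL15A1, lies at the outer face of the basement membranes of muscle fibres and capillaries. In muscle these transcripts come mostly from fibroblasts and related cells of the connective tissue rather than from the fibres themselves. In whole-tissue RNA, fewer cells of a type and less RNA per cell cannot be told apart.

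Of 21475 bovine probes, 15856 were bright enough to be kept and tested. Between 32513 and 33527 of 42990 spots per array cleared the scanner software's background test in the LIM channel, against 27102 to 28769 in the HF channel, and none was saturated. The 5 collagen probes cleared it on each of 4 arrays in LIM as well as in HF. The duplicate spots of a collagen probe differed by at most 0.10 on the log2 scale on any array.

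COL3A1 was the chain with the highest ratio of the LIM channel to the HF channel. After normalisation its brightness was 7079.55, 10269, 15502 and 14371 in the LIM channel of arrays 1 to 4, against 2103, 2570.5, 828 and 3267 in the HF channel. Every LIM value lay above every HF value, and the HF channel of array 3 held the lowest level of all. The log2 ratios, LIM over HF, were 1.75, 2.00, 4.23 and 2.14. The dye labels set this direction, and the study's own lists give COL3A1 the opposite one, as they do for PCOLCE2, SMAD2 and TGFB2 below, and for SMAD2 and TGFB2 its qPCR also has the opposite direction. The mean was 2.53 ± 0.44 (moderated SE, n = 4; 95% interval 1.42 to 3.63), a 5.77-fold higher level in the LIM channel, and it passed limma's test over all kept probes (adjusted p = 0.0439). The ratio was above 0 on 4 of 4 arrays and ranked 4 of 15856 kept probes from the top, or 15853 with the sign turned. The call ended when the filter on dim probes was dropped (adjusted p = 0.0631), with an intensity-dependent robust prior (adjusted p = 0.121), with the methods' t-test after correction, and when array 1, 2 or 4 was left out (limma, adjusted p = 0.0774, 0.116 and 0.135). Without array 3 the mean was 1.96 and the call held (limma, adjusted p = 0.0287).

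The type I chains had lower ratios that followed each other closely. COL1A1 brightness was 4251, 6871, 9558 and 10040.4 in the LIM channel of arrays 1 to 4, against 3847, 4258, 1636 and 4485 in the HF channel. The channels overlapped, since LIM on array 1 lay below HF on arrays 2 and 4. COL1A1 had log2 ratios of 0.14, 0.69, 2.55 and 1.16, and its mean of 1.14 ± 0.39 (moderated SE, n = 4), or 2.20-fold, did not pass limma's test (adjusted p = 0.145).

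COL1A2 brightness was 2849, 4361, 6648 and 7732 in the LIM channel, against 2488, 2636, 932 and 2906 in the HF channel. Here too the channels overlapped only through LIM on array 1, which lay just below HF on array 4. COL1A2 had log2 ratios of 0.20, 0.73, 2.83 and 1.41, and its mean of 1.29 ± 0.44 (moderated SE, n = 4), or 2.45-fold, did not pass limma's test (adjusted p = 0.139). The ratios of both type I chains were above 0 on all 4 arrays and near 0 on array 1. The difference between them, COL1A2 minus COL1A1, was 0.05, 0.04, 0.29 and 0.25 on arrays 1 to 4, with a mean of 0.16 (SD 0.13).

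**Figure D1:**
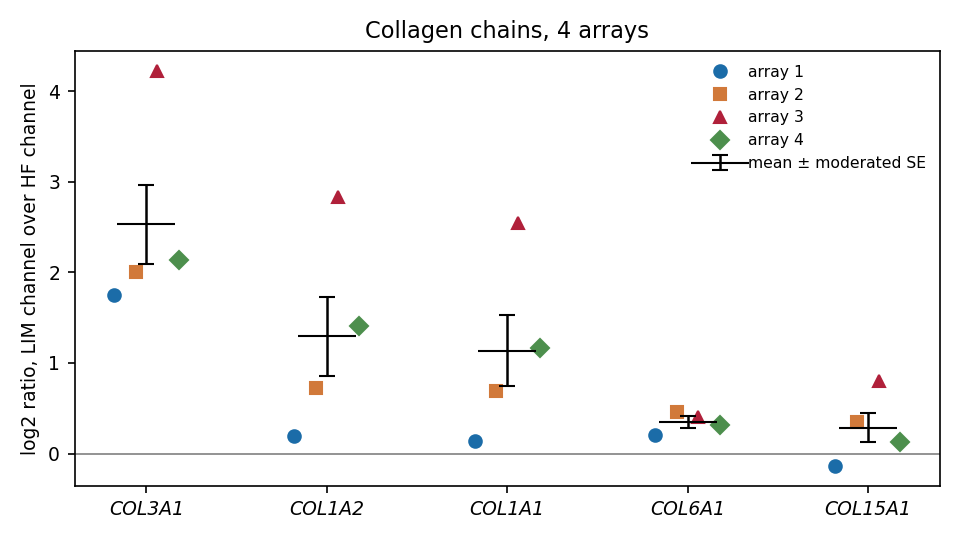
Log2 ratio of the LIM channel over the HF channel (vertical axis) of the 5 measured collagen chains on each of 4 arrays, with black bars for the mean ± moderated SE. COL3A1 lies highest at 1.75 to 4.23, array 3 is the highest point of COL3A1, COL1A2, COL1A1 and COL15A1, and COL6A1 lies between 0.20 and 0.45.

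COL6A1 differed little but evenly. Its brightness was 2217, 2163, 2125 and 2174 in the LIM channel of arrays 1 to 4, against 1928, 1579, 1601 and 1741 in the HF channel. The channels did not overlap. The log2 ratios of COL6A1 were 0.20, 0.45, 0.41 and 0.32, and the mean was 0.35 ± 0.07 (moderated SE, n = 4; 95% interval 0.17 to 0.52), or 1.27-fold. COL6A1 fell just short of limma's test over all kept probes (adjusted p = 0.0550). It passed under 2 of 21 alternatives. These were array weights (limma, adjusted p = 0.0460) and ratios centred on each array's median instead of loess, where its ratio was 0.96 (limma, adjusted p = 0.0268). Such median centring called 3525 kept probes higher. Under the other alternatives COL6A1 did not pass, with the highest adjusted p for the channels as separate samples (limma, adjusted p = 0.185).

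COL15A1 brightness was 794, 1406, 1153 and 1068 in the LIM channel, against 872, 1103, 663 and 977 in the HF channel. LIM was above HF on arrays 2, 3 and 4 and below it on array 1, and the channels overlapped. The log2 ratios of COL15A1 were −0.14, 0.35, 0.80 and 0.13. Its mean of 0.29 ± 0.16 (moderated SE, n = 4; 95% interval −0.12 to 0.69) did not pass limma's test (adjusted p = 0.318).

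**Figure D2:**
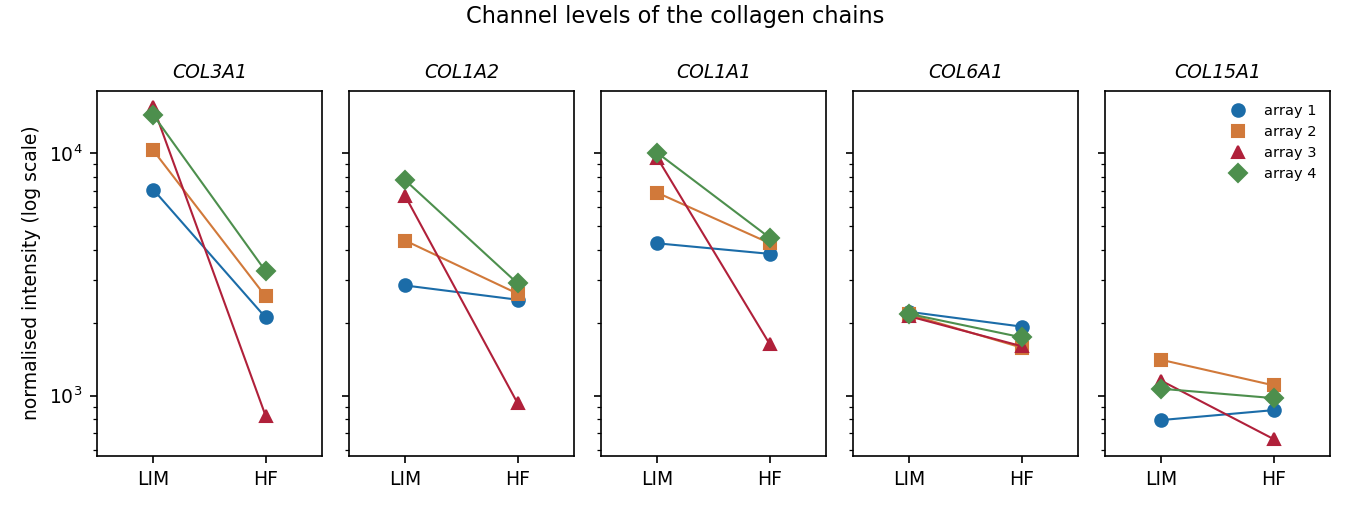
Normalised brightness (vertical axis, log scale, arbitrary units) of the 5 collagen probes in the LIM and the HF channel, with a line joining the channels of 1 array; levels of different probes are not comparable. For COL3A1, COL1A2 and COL1A1 the HF channel of array 3 lies at 828, 932 and 1636, below the HF channels of the other arrays, while the channels of COL6A1 and COL15A1 lie close together.

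Counted over the 5 measured chains, 1 was called higher in the LIM channel (limma, adjusted p under 0.05), where 2.96% of all kept probes were, and 0 were called lower, where 2.51% were. At an unadjusted p under 0.05 in limma 4 of 5 chains were higher, against 15.1% of kept probes. The ratio was above 0 on all 4 arrays for 4 of 5 chains, against 21.2% of kept probes. The channels did not overlap, with LIM above HF, for 2 of 5 chains, COL3A1 and COL6A1, against 9.5% of kept probes. As labelled, the matching shares on the lower side were 12.2%, 15.6% and 7.35%, and with the sign of every ratio turned the collagen counts and their shares would stand on the lower side unaltered. The median of the mean ratios of the other 4 chains was 0.74, beside a median of 0.018 over all kept probes.

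The size of the difference between COL3A1 and the other chains was taken within each array. This difference is a description without a test, because COL3A1 was singled out with its ratio known. COL3A1 minus the median of the other 4 chains was 1.58, 1.43, 2.55 and 1.40 on arrays 1 to 4, with a mean of 1.74 (SD 0.55, n = 4). All 4 arrays thus had COL3A1 above the other chains. Against COL1A1 the mean difference was 1.39 (SD 0.32), between 0.97 and 1.68, and against COL1A2 it was 1.24 (SD 0.36), between 0.73 and 1.56. These differences were smallest on array 4, and array 3, where all 3 fibrillar chains had their highest ratio, gave 1.68 and 1.39. Against COL6A1 the mean difference was 2.18 (SD 1.10), between 1.54 and 3.82, and against COL15A1 it was 2.24 (SD 0.80), between 1.65 and 3.43. For both of these chains the highest difference was on array 3.

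**Figure D3:**
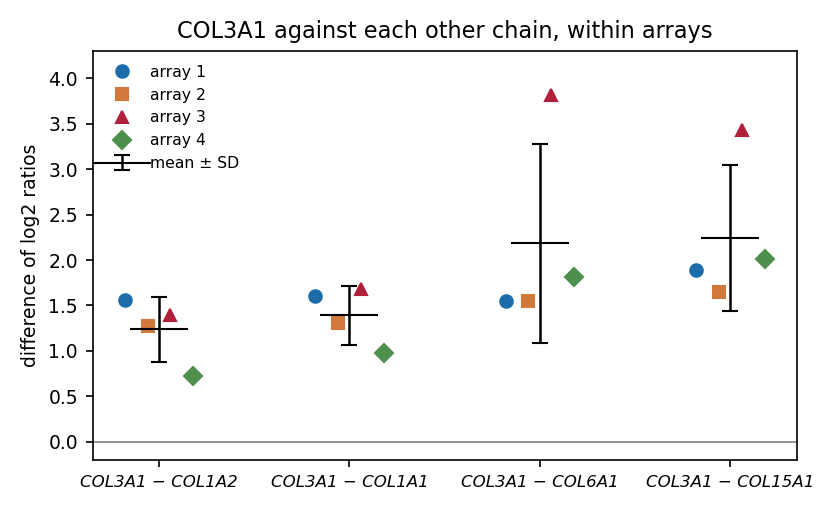
Difference in log2 ratio between COL3A1 and each other measured chain on the same array (vertical axis), with black bars for the mean ± SD over 4 arrays. All points lie above 0, those against COL1A2 and COL1A1 between 0.73 and 1.68, and array 3 stands at 3.82 against COL6A1 and 3.43 against COL15A1.

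The arrays ranked the 3 fibrillar chains COL3A1, COL1A1 and COL1A2 in 1 order, with array 1 lowest, then array 2, array 4 and array 3. Of all kept probes 4.79% had this order, and 29.1% had their highest ratio on array 3. COL6A1 was highest on array 2. On array 3 the HF channel of COL1A1, COL1A2 and COL3A1 lay 2.35-fold, 2.67-fold and 2.54-fold below the lowest HF channel of the other arrays. A gap of at least 2-fold of this kind was found for 55 of 15856 kept probes (0.347%). The LIM channel of array 3 stood at 0.952, 0.860 and 1.08 times that of array 4 for COL1A1, COL1A2 and COL3A1. For these chains the LIM channels of arrays 3 and 4 both lay above those of arrays 1 and 2. Array 3 thus stood apart from every other array in its HF channel, while in its LIM channel it lay near array 4 only. The SD of the COL3A1 ratio over arrays (1.14) was reached by 74 kept probes (0.467%). Without array 3 the means were 1.96 (SD 0.20) for COL3A1, 0.67 (SD 0.51) for COL1A1, 0.78 (SD 0.61) for COL1A2, 0.33 for COL6A1 and 0.11 for COL15A1, so that the values of COL1A1, COL1A2 and COL15A1 moved by more than 1.5 times.

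Other collagens were few on the array. COL18A1, which encodes the basement membrane collagen that releases endostatin, was measured as the only basement membrane collagen of its list and had a ratio of 0.58 ± 0.20 (limma, adjusted p = 0.138), with its lowest ratio, 0.18, on array 3. Of 2 measured network-forming collagens COL10A1 had 0.085 ± 0.058 (limma, adjusted p = 0.405) and COL8A1 had −0.018, and neither passed. The HF channel of COL8A1 cleared the background test on only 1 of 4 arrays, so its ratio is set against a level not well above background. COL11A1, a minor fibril-forming chain, and COL17A1 were not well above background in either channel on any array.

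Of 18 measured genes whose products modify or process collagen 2 passed the test, where 5.47% of all kept probes did in either direction. None of 12 modifying enzymes and chaperones passed limma's test, and their median was 0.013. The closest was P4HA1, a catalytic subunit of the prolyl 4-hydroxylase that stabilises the triple helix, at −0.53 ± 0.11 (limma, adjusted p = 0.0550). P4HA1 passed as lower at normexp offsets 0 and 16 (limma, adjusted p = 0.0465 and 0.0438). PLOD2, P4HA3 and P3H2 were kept through the LIM channel, and their HF channels cleared the background test on 0, 2 and 1 of 4 arrays. SERPINH1, the collagen chaperone of the endoplasmic reticulum, had 0.044 ± 0.16. Of 6 genes of propeptide processing and crosslinking LOXL1, a lysyl oxidase known for crosslinking elastin, was higher in the LIM channel (0.66 ± 0.07, between 0.53 and 0.75; limma, adjusted p = 0.0210). PCOLCE2, an enhancer of the proteinase that trims the C-terminal propeptide of procollagen, was lower (−1.07 ± 0.16, between −1.44 and −0.50; limma, adjusted p = 0.0356). The other 4 genes of this list did not pass, and the list median was −0.024. Of these LOXL2 had 0.79 ± 0.15 (limma, adjusted p = 0.0505), and it passed at normexp offsets 0 and 16 (limma, adjusted p = 0.0358 and 0.0368). ADAMTS2 had 0.19 ± 0.06 (limma, adjusted p = 0.115), and its HF channel cleared the background test on 0 of 4 arrays. With processed signals ADAMTS2 passed at 2.10 (limma, adjusted p = 0.00403), a ratio set against a level not well above background.

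Of 12 measured genes whose products bind fibrils 2 were lower in the LIM channel, none was higher, and the median was 0.053. Of all kept probes 2.51% were lower and 2.96% were higher. FBLN5, an elastic fibre protein, had a ratio of −0.98 ± 0.09 (between −1.24 and −0.79; limma, adjusted p = 0.0190), and TNXB, tenascin X, which ties collagen fibrils together, had −0.94 ± 0.14 (between −1.39 and −0.60; limma, adjusted p = 0.0351). With median centring FBLN5 (−0.42) and TNXB (−0.39) stayed below 0 and did not pass (limma, adjusted p = 0.114 and 0.200). SPARC, a collagen-binding matrix protein named here after its values were seen, had levels of 14306, 30953, 26267 and 28114 in the LIM channel of arrays 1 to 4, against 11027, 11687, 6344 and 12686 in the HF channel. The channels of SPARC did not overlap, with LIM above HF, as for 9.5% of all kept probes. Its HF level was lowest on array 3, as for the fibrillar chains and for 24.9% of all kept probes. From the lowest ratio to the highest, SPARC ranked the arrays 1, 4, 2 and 3, an order unlike that of the fibrillar chains. The log2 ratio of SPARC was 1.24 ± 0.27 and did not pass (limma, adjusted p = 0.0627). It passed at normexp offset 0 (limma, adjusted p = 0.0366) and not without background correction (limma, adjusted p = 0.0542). SPARC also passed at offset 16, with processed signals, the series value table, median centring and array weights. It passed too with a filter on both channels, the methods' t-test with its limits and the channels as separate samples, and under no other alternative. Lumican (LUM), which regulates fibril diameter, had 0.66 ± 0.14 (limma, adjusted p = 0.0643), decorin (DCN) had −0.23 ± 0.22, and biglycan (BGN) had −0.05 ± 0.29.

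Among 4 genes of laminins and basement membrane partners none passed, with a median of 0.14; NID2, a nidogen that links laminin and type IV collagen, had 0.72 ± 0.17 (limma, adjusted p = 0.0750). Of 2 collagen receptors none passed, with a median of 0.21; DDR1, a receptor tyrosine kinase that binds collagen, had 0.40 ± 0.08 (limma, adjusted p = 0.0573). MMP15, a membrane-bound matrix metalloproteinase, was higher in the LIM channel (0.74 ± 0.11, between 0.53 and 1.08, limma, adjusted p = 0.0334). The other 7 of 8 genes of collagen breakdown did not pass, where 2.96% of all kept probes were higher and 2.51% were lower. This list had a median of −0.012, and MMP2, a gelatinase, had 0.05 ± 0.06.

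Of 10 measured regulators of collagen transcription 2 were higher and 1 was lower in the LIM channel, with a list median of −0.055. Of all kept probes 2.96% were higher and 2.51% were lower. SMAD2, a signal transducer of the TGF-beta receptor, had 0.49 ± 0.07 (between 0.42 and 0.64; limma, adjusted p = 0.0311). TGFB2, a TGF-beta ligand, had 0.43 ± 0.07 (between 0.33 and 0.57; limma, adjusted p = 0.0400). NFYA, a subunit of the CCAAT-binding factor, was lower at −0.69 ± 0.12 (between −1.07 and −0.45; limma, adjusted p = 0.0441). With the scanner software's processed signals neither SMAD2 nor TGFB2 passed (limma, adjusted p = 0.0514 and 0.0533), nor did they with the channels as separate samples (0.0618 and 0.155). With median centring the ratio of NFYA was −0.30 and did not pass (limma, adjusted p = 0.168). TGFB1 had −0.10 ± 0.07, and CCN2, a matricellular protein induced by TGF-beta, had −0.27 ± 0.18. The medians of the lists of propeptide processing (0.074), breakdown (0.40) and regulators (0.34), all below 0 with loess, lay above 0 with median centring. None of the genes past the test in these lists or among the markers, 12 in all, passed when any 1 array was left out.

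**Figure D4:**
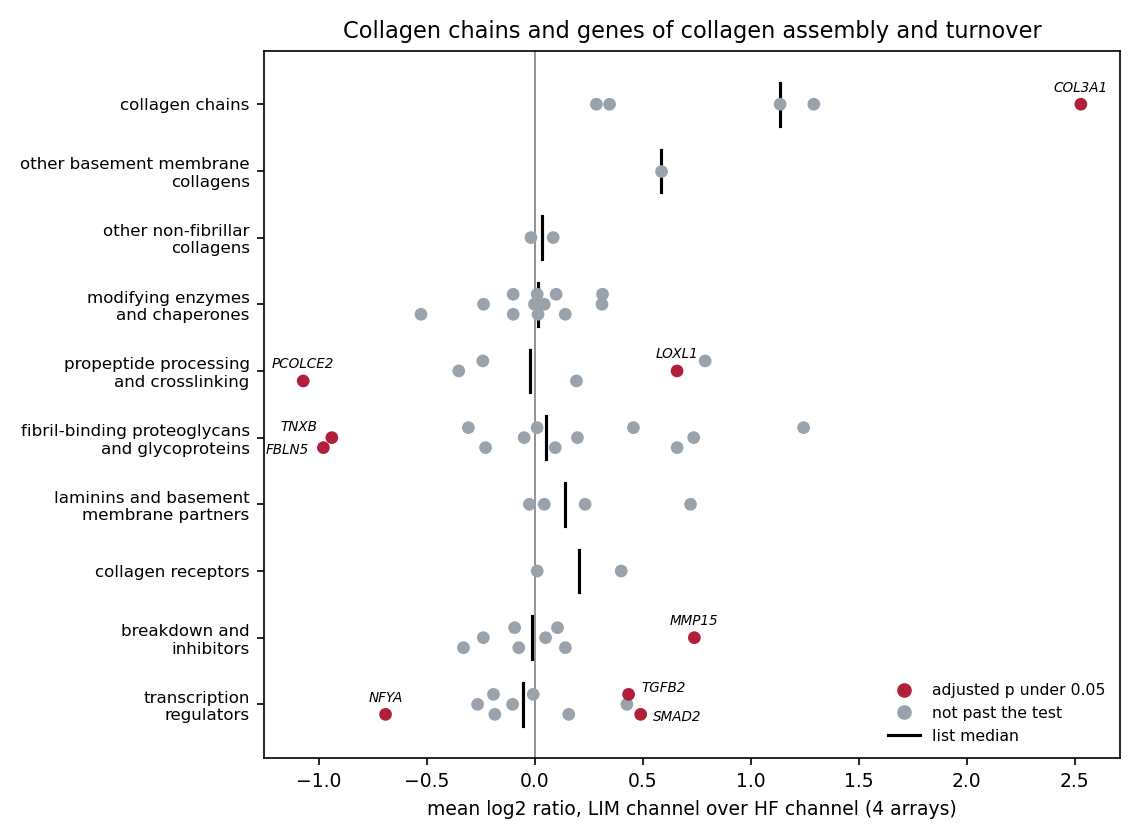
Mean log2 ratio of the LIM channel over the HF channel (horizontal axis) of the collagen chains and of genes of collagen assembly and turnover, 1 point per gene and a black bar for each list median; red points passed limma's test at an adjusted p under 0.05. COL3A1 lies farthest right at 2.53, the medians of the lists outside the chains lie between −0.055 and 0.58, and outside the chains 4 genes passed as higher and 4 as lower. Of all kept probes 2.96% passed as higher and 2.51% as lower.

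Of 39 measured markers of the cell types that muscle can hold 4 passed the test, where 5.47% of all kept probes did. The 7 measured skeletal muscle fibre markers had summed levels of 703874 to 777344 in the LIM channel, against 634593 to 839120 in the HF channel, and a median ratio of −0.044. Of these only MB, myoglobin, passed (1.02 ± 0.15; limma, adjusted p = 0.0326). The 9 fibroblast and fibro-adipogenic markers summed to 23164 to 31081 in the LIM channel, against 21031 to 32804 in the HF channel, and had a median of −0.074. OSR1, a transcription factor of fibro-adipogenic cells, was lower (−1.28 ± 0.24; limma, adjusted p = 0.0496), and it did not pass with median centring (−0.80; limma, adjusted p = 0.0979). The other 8 fibroblast markers did not pass, and both sums of these lists overlapped between channels. For tendon, 0 of 5 markers passed and the median was 0.095, from −0.84 on array 1 to 0.62 on array 3; MKX, a tendon transcription factor, had −0.27 ± 0.08, but it cleared the background test on only 1 of 4 arrays in the LIM channel, against 3 of 4 in the HF channel, so that its ratio is set against a level not well above background. Of the 5 tendon markers FMOD and THBS4 ranked the arrays as the fibrillar chains did and the other 3 did not. Over all lists 4 of 90 genes had this order, BGN and P4HA2 besides these, where 4.79% of all kept probes had it. A part of these genes in the collagen ratios was not tested. For endothelium and pericytes 0 of 5 markers passed (median −0.15), with RGS5 at −0.23 ± 0.09. For smooth muscle LMOD1 was lower at −0.43 ± 0.08 (limma, adjusted p = 0.0485), though at 0.022 with median centring, and the median of 5 markers was −0.19. For macrophages and leukocytes 0 of 4 markers passed (median −0.55), with CD14 at −0.49 ± 0.14. For adipocytes CFD, adipsin, was lower (−1.17 ± 0.20; limma, adjusted p = 0.0441), 3 markers did not pass, and the median was 0.13. With median centring the medians of muscle fibre (0.70), fibroblast (0.46) and smooth muscle (0.30) markers lay above 0, beside a shift of the median of all kept probes to 0.25.

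The genes whose 4 ratios lay nearest to those of a chain were found by the root mean square difference over 4 arrays among 6376 genes with a kept probe. Nearest to COL3A1 was METTL21E, a methyltransferase of muscle, at a distance of 0.76 and with ratios of 1.47, 2.18, 2.85 and 1.60. PVALB, the calcium buffer parvalbumin, followed at 0.927 with ratios of 2.08, 1.68, 2.95 and 0.87. NDRG2 was at 1.27 with ratios of 1.56, 1.52, 2.05 and 0.94. Both were lowest on array 4, where COL3A1 was lowest on array 1. The distance also depends on the size of the ratios, and COL3A1 ranked 4 of 15856 kept probes, so few genes could lie near it. Nearest to the median of the other 4 chains were SERPINF1, a secreted serpin, at 0.177, PARVB, an actin-binding adaptor of integrin adhesions, at 0.246, and GTF2IRD2 at 0.266. SERPINF1 had ratios of 0.47, 0.58, 1.79 and 0.59, high on array 3 as the type I chains were.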

How the data were processed

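RNA of semitendinosus muscle from 4 LIM bulls (Cy5) and 4 HF bulls (Cy3) was hybridised in pairs to 4 arrays on 1 slide, so no slide or scan could serve as a block. The array number pairs the channels, because both lay on the same array, and the log2 ratio carries this pairing. Per the file headers the authors quantified the scans with Feature Extraction 10.7.3.1. The authors deposited unnormalised intensity values (per dye, the median over the pixels of a spot and over those around it) and log10 ratios of processed red over green signals, from which that software had taken off background and dye bias. GEO's value table repeated these log10 ratios (largest difference 0, column medians 0).

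Intensities were corrected with normexp (offset 50) and normalised by loess within each array with control spots at weight 0. Non-uniform spots (5 to 10 per array) were left out and spots of a probe averaged. Kept were 15856 of 21475 probes, those that on 3 or more of 4 arrays cleared the software's background test in 1 given channel, and the mean log2 ratio was tested against 0 with limma 3.58.1 in R 4.3.3 (two-sided, Benjamini-Hochberg over all kept probes, 470 higher and 398 lower at an adjusted p under 0.05). Levels are brightness after loess and Aquantile, which leaves ratios unchanged. Loess assumes that most probes do not shift with brightness, and with 4 arrays precision is limited. The tests were run on simulated data first.

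Gene names came from the accession of each probe through RefSeq's bovine gene table. The table's assembly differs from that of the array design, so no position is given, and 8297 probes had a symbol. A gene with several kept probes was represented by the brightest. Named were all chains, from each of 10 gene lists and 7 marker lists the genes past the test (at most 4) or else the 1 with the smallest p, and the 3 nearest genes to COL3A1 and to the other chains. The 10 gene lists were other fibril-forming, basement membrane and further collagens, modifying enzymes, propeptide processing, fibril-binding proteins, basement membrane partners, receptors, breakdown and regulators. The marker lists were muscle fibre, fibroblast, tendon, endothelium, smooth muscle, macrophage and adipocyte. The chains and lists were chosen with earlier results of these data known. SPARC and further genes given beside them (SERPINH1, LUM, DCN, BGN, MMP2, TGFB1, CCN2, COL8A1, LOXL2, ADAMTS2) were added after their values were seen. Alternatives changed the background correction, normalisation, filter, spots, variance model, test and arrays used.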

Additional observations from a re-analysis of the deposited data

Results flagged for a closer look

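Of 64 values checked on 4 arrays, 5 had 1 array far from the others. Its gap to the nearest array, divided by the whole range, lay above Dixon's 95% critical value. Chance would give about 3.2 if the values were separate, which they are not. The COL3A1 ratio enters more than 1 of them, and SERPINF1 was picked for its likeness to the chains. The counts of 5 and 3.2 therefore cannot be compared. The ratio of COL3A1 was 4.23 on array 3 and 1.75 to 2.14 on the others (gap 0.844 of the range). COL3A1 minus the median of the other 4 chains was 2.55 on array 3 and 1.40 to 1.58 on the others (0.840), and COL3A1 minus COL6A1 was 3.82 on array 3 and 1.54 to 1.82 on the others (0.880). SERPINF1 was 1.79 on array 3 and 0.47 to 0.59 on the others (0.906). SMAD2 was 0.64 on array 1 and 0.42 to 0.46 on the others (0.835). The cause of these gaps was not tested.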

How the results depend on the processing

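None of the ratios of the 5 measured chains changed sign under any of 21 alternatives. Several genes of the lists did, among them COL10A1, at −0.017 with median centring, and LMOD1, also with median centring. Aquantile repeats the main ratios. The series value table repeats the processed signals, with COL3A1 at 2.61 in both. The COL3A1 ratio lay between 1.96 and 3.17 and passed under 15 of the 21 alternatives, these repeats included. It kept its value of 2.53 without passing when no filter on dim probes was used (adjusted p = 0.0631), with an intensity trend and robust prior (0.121) and in the methods' t-test after Benjamini-Hochberg adjustment (0.184). With 1 array left out it was 1.96 to 2.79, and only leaving out array 3 kept the call. The COL3A1 difference from the median of the other chains was 1.31 to 1.85 over 23 alternatives, and the median of the other chains was 0.50 to 1.37. Both moved by less than their SD over arrays, 0.55 for the difference and 0.64 for the median. Without array 3 these SDs were 0.10 and 0.29, so the limit is a loose one. With median centring the median of the other chains rose from 0.74 to 1.37. The difference was an unweighted mean over arrays under every alternative. Alternatives in the filter, variance model or test, Aquantile and centring on the kept probes therefore could not move it. It stayed at 1.74 under them, so they say nothing about its stability. With array weights the fitted ratio of COL3A1 was 2.38 and the median of the fitted ratios of the other chains was 0.70. The count of chains called higher was 3 with median centring (COL1A2 at 1.92 and COL6A1 at 0.96 besides COL3A1), 2 with array weights (COL6A1 at 0.36), 0 without the filter, with the trend and robust prior and with the adjusted t-test, and 0 to 1 with 1 array left out. Over all kept probes 806 were higher with processed signals, 807 with the series value table, 3525 with median centring, 818 by the methods' t-test with its p and fold limits, 1 by that test after adjustment and 0 with the trend and robust prior. Lower were 661 by that t-test with its limits, 0 after adjustment and 0 with the trend and robust prior. With 1 array left out 0 to 15 were higher and 0 to 36 lower. The trend and robust prior, which called 0 probes, had 4099 at an unadjusted p under 0.05 (limma). Median centring moved the median ratio of kept probes from 0.018 to 0.25 and the share of calls that were higher from 54.1% to 92.8%; relative to that median COL3A1 stood at 2.92, COL1A2 at 1.67, COL1A1 at 1.53, COL6A1 at 0.71 and COL15A1 at 0.61. With the channels as separate samples and no replicate block the COL3A1 ratio was 2.53 and passed (adjusted p = 0.00200). Centring on the kept probes was chosen after seeing the data. Each chain had 1 probe, so other probe summaries gave no other value, and COL5A1 and COL5A2 were not analysed here. The 4 arrays set the precision, since duplicate spots of the collagen probes agreed within 0.10.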
